A study of Mus musculus with 12 samples.

Results

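Oxidative phosphorylation is carried out by 5 protein complexes of the inner mitochondrial membrane, and the nuclear genes for their subunits were described here across the cortex of 3 groups of mice. Members were the gene models that the authors' Cuffdiff run tested and whose symbol began as the subunit families of complexes I to V do (Nduf, Sdh, Uqcr and Cyc1, Cox and Atp5). The rule found 85 symbols. They gave 88 of 18417 tested models for GluN1 against WT, 87 of 18430 for GluN1Cre against GluN1 and 87 of 18429 for GluN1Cre against WT. A gene that was assembled into several models counts once for each.

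Complex I (NADH dehydrogenase) and complex II (succinate dehydrogenase) pass electrons from fuel to ubiquinone, complex III (cytochrome bc1) passes them on to cytochrome c, and complex IV (cytochrome c oxidase) passes them to oxygen. Complexes I, III and IV pump protons, and complex V (ATP synthase) uses the returning protons to make ATP. In the cortex this is the main source of the ATP that restores ion gradients after synaptic activity, and NMDA-type glutamate receptors, whose obligatory subunit is encoded by Grin1, are part of that activity.

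The GluN1 group (Grin1 knockdown, per the series title) had 4 mice, the GluN1Cre group (the Cre rescue of that knockdown) had 4 and the WT group had 4. All were male F1 hybrids of C57Bl/6 and 129/SvlmJ, 14 weeks old, and all had been given tamoxifen, a ligand that activates inducible Cre, starting at an age of 10 weeks (a gavage of 6 mg, then some 14 mg eaten with the chow). By the group names Cre was present in GluN1Cre alone, so effects of Cre and of restored Grin1 cannot be told apart, and the allele that lowers Grin1 and the driver of Cre are not given in the sources used here. Polyadenylated RNA of frontal cortex was sequenced. The deposited tables hold 1 FPKM (fragments counted on a transcript, scaled by its length and by the library size) per group, estimated over its animals, so the values below have no spread between animals and depth is unknown.

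Grin1 was at 56.7 FPKM in GluN1, against 138 FPKM in WT, and at 78.0 FPKM in GluN1Cre, against 138 FPKM in WT. In the table of the remaining pair it was at 86.7 FPKM in GluN1Cre and at 65.7 FPKM in GluN1. The excitatory neuron markers Slc17a7 (598 FPKM in GluN1 and 626 FPKM in WT) and Camk2a (730.4 FPKM in GluN1 and 848 FPKM in WT) were abundant, as the cortex label requires. Markers of neighbouring regions also differed between the groups, where a model was called at p under 0.05 and q under 0.10, the study's threshold. Of the 8 olfactory bulb marker models, 8 were called higher in GluN1 than in WT (median log2 fold 1.71), 8 were called lower in GluN1Cre than in GluN1 (-0.72) and 6 of 7 were called higher in GluN1Cre than in WT (0.67). Of the 7 striatal marker models, 5, 1 and 7 were called lower in those comparisons (median log2 folds -0.51, -0.25 and -0.59). Blood markers had median log2 folds of 0.19, 0.38 and 0.57, with 1, 3 and 3 of 5 models called higher. The part of these tissues in the results below was not tested, and in bulk tissue fewer cells of a type and less RNA per cell cannot be told apart.

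The transcripts of most subunits were abundant, and the 5 complexes were at similar levels. Among the models that averaged 1 FPKM or more over the groups compared, the median level of the 39 complex I models was 94.1 FPKM in GluN1 and 93.6 FPKM in WT. The 4 complex II models had a median of 80.8 FPKM in GluN1 and 77.8 FPKM in WT, and the 9 complex III models one of 127 FPKM in GluN1 and 124 FPKM in WT. The 15 complex IV models had a median of 96.9 FPKM in GluN1 and 93.7 FPKM in WT, and the 18 complex V models one of 165 FPKM in GluN1 and 164 FPKM in WT. Over all tested models that passed the same minimum, the median was 9.87 FPKM in GluN1 and 9.82 FPKM in WT, so the subunit genes stood far above the middle of the transcriptome in both groups.

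**Figure D1:**
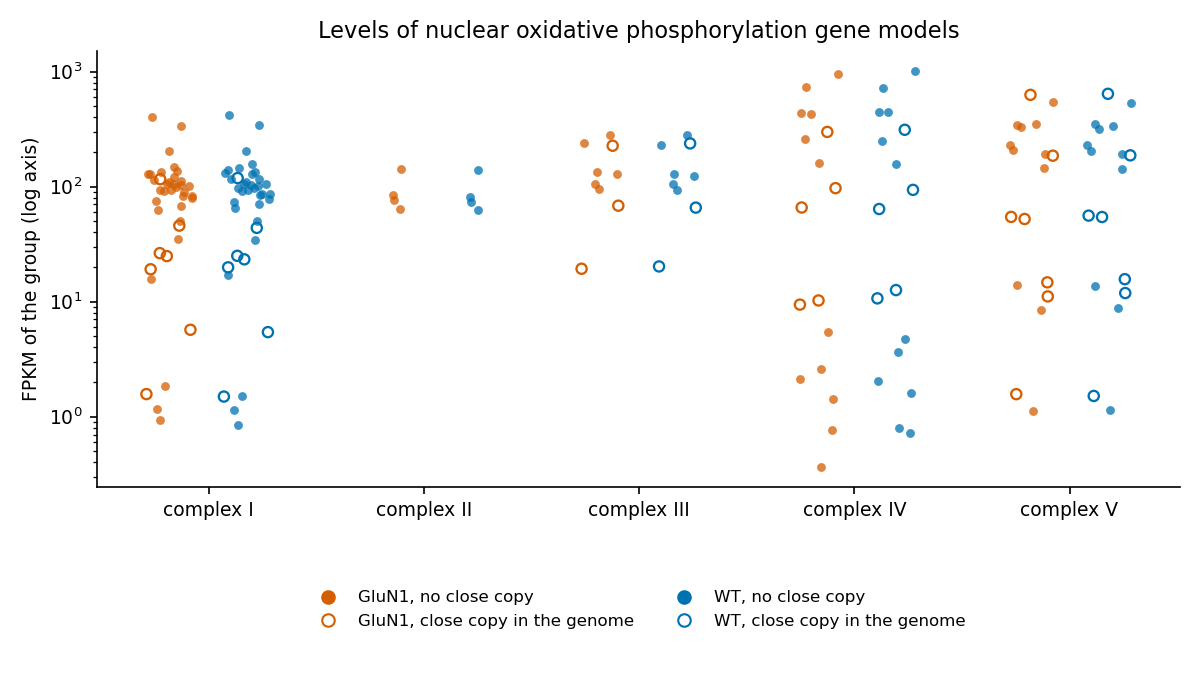
Each point is the FPKM (log axis) of a tested gene model in GluN1 (orange) and in WT (blue), by complex. Open circles mark genes with an annotated copy of at least 95% identity elsewhere in the genome, and the filled points below 30 FPKM are isoforms of other tissues, matches that are no subunits, minor models of a gene, and Ndufa11.

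The highest model of each complex shows the range. Cox8a, a small subunit of cytochrome c oxidase, had 953 FPKM in GluN1 and 1019.8 FPKM in WT, the highest level of any member. Atp5k, the e subunit that helps ATP synthase form dimers, had 628 FPKM in GluN1 and 640.4 FPKM in WT. Ndufa4, first counted in complex I and later assigned to cytochrome c oxidase, was kept in complex I here by its symbol, also in the medians and sums. It had 405 FPKM in GluN1 and 423 FPKM in WT. These 3 stood well above the leading models of complexes II and III. Uqcrq, a small subunit of complex III, had 280.5 FPKM in GluN1 and 283 FPKM in WT. Sdha, the flavoprotein subunit that oxidises succinate, had 141 FPKM in GluN1 and 139 FPKM in WT.

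Catalytic subunits were not the most abundant transcripts of complexes I and III. In complex I, Ndufv1, which binds NADH, had 94.1 FPKM in GluN1 and 97.2 FPKM in WT. Ndufs1, the largest iron-sulfur subunit, had 50.5 FPKM in GluN1 with a log2 fold of 0.01 over WT. Both were well below the accessory subunit Ndufa3, named here after its values were seen, which had 339 FPKM in GluN1 and 346 FPKM in WT. In complex III, Cyc1 (cytochrome c1) had 133 FPKM in GluN1 and 129.5 FPKM in WT, and Uqcrfs1 (the Rieske iron-sulfur protein) had 94.5 FPKM in GluN1 and 93.4 FPKM in WT. In complex V the catalytic pair was among the higher transcripts, with Atp5b (the beta subunit) at 545 FPKM in GluN1 and 531 FPKM in WT and Atp5a1 (the alpha subunit) at 347 FPKM in GluN1 and 337 FPKM in WT.

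Where a subunit exists as isoforms encoded by separate genes, 1 isoform carried most of the estimated transcript. For the c subunit of ATP synthase this is uncertain, as described below. Cox4i1, the general form of subunit 4, had 730.5 FPKM in GluN1 and 725 FPKM in WT, while Cox4i2, known as a form induced by low oxygen and strong in lung, had 1.43 FPKM in GluN1 and 1.61 FPKM in WT. Cox6a1, the widely expressed form, had 424 FPKM in GluN1 and 441 FPKM in WT, while Cox6a2, the heart and skeletal muscle form, had 2.57 FPKM in GluN1 and 3.62 FPKM in WT. For these subunits the isoforms thus differed far more than the groups did. Cox8a was described above; Cox8b, the muscle form, had 0.365 FPKM in GluN1 and 0.794 FPKM in WT, and Cox8c, a testis form, was listed at 0 FPKM in every group and was not tested.

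The testis forms were low as well. Cox6b1 had 440 FPKM in GluN1 and 445 FPKM in WT, against 2.12 FPKM in GluN1 and 2.06 FPKM in WT for the testis form Cox6b2. Cox7b2, the testis form of subunit 7b, had 0.766 FPKM in GluN1 and 0.718 FPKM in WT. In the subunit 7a family, Cox7a2 had 160 FPKM in GluN1 and 158 FPKM in WT, Cox7a2l, which helps join complexes III and IV into supercomplexes, had 96.9 FPKM in GluN1 and 93.7 FPKM in WT, and the muscle form Cox7a1 had 5.42 FPKM in GluN1 and 4.76 FPKM in WT. Ndufa4l2, a relative of Ndufa4 known for induction under low oxygen, had 1.83 FPKM in GluN1 and 1.52 FPKM in WT. For the ring-forming c subunit of ATP synthase, which Atp5g1, Atp5g2 and Atp5g3 all encode with an identical mature protein, the levels were 54.5, 1.57 and 342 FPKM in GluN1 and 56.0, 1.51 and 352 FPKM in WT. Atp5g2 has annotated copies of 100% identity elsewhere in the genome (Gm10175 and Gm10231), and Atp5g1 has 1 of 99.8% (Gm10039). Their levels, and the order of the c subunit isoforms, are thus uncertain in every group. The order of the isoforms was the same in GluN1Cre, with Cox4i1 at 699.8 FPKM and Cox4i2 at 1.37 FPKM, Cox6a1 at 405 FPKM and Cox6a2 at 3.20 FPKM, and Atp5g3 at 334 FPKM, Atp5g1 at 55.3 FPKM and Atp5g2 at 1.12 FPKM.

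**Figure D2:**
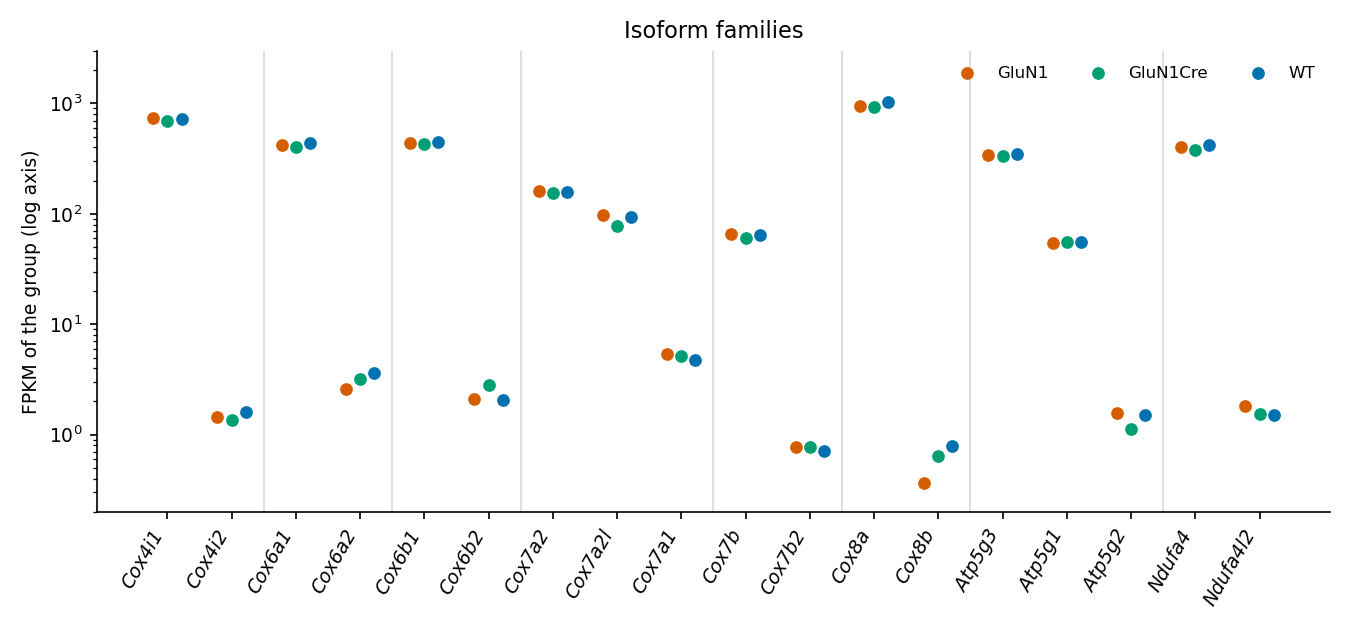
Points give the FPKM (log axis) of the isoforms of each family in GluN1, GluN1Cre and WT, with the GluN1 and WT values from the table that compares them and the GluN1Cre values from the table of GluN1Cre against WT. A gap between GluN1Cre and the other groups can thus come from the table. Cox7a2l is drawn at 77.0 FPKM in GluN1Cre and 93.7 FPKM in WT, but in the table of GluN1Cre against WT it had 76.8 FPKM in WT. The isoforms of Cox4i, Cox6a and Cox8 lie far apart, and the groups lie closer together than these isoforms do, with the widest gap between groups at Cox8b (0.365 FPKM in GluN1 and 0.794 FPKM in WT).

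Some genes for subunits that every tissue needs were listed at very low levels. Ndufb4 (1.57 FPKM in GluN1 and 1.50 FPKM in WT) and Ndufs5 (5.70 FPKM in GluN1 and 5.43 FPKM in WT) are accessory subunits of complex I. Cox5b (10.2 FPKM in GluN1 and 12.6 FPKM in WT) and Cox7c (9.43 FPKM in GluN1 and 10.7 FPKM in WT) belong to cytochrome c oxidase, and Uqcrb (19.3 FPKM in GluN1 and 20.2 FPKM in WT) to complex III. These genes, except Cox5b and Uqcrb, were named after their values were seen, as were the genes with copies in the next sentences. The coding sequences of the members were compared with the GENCODE M21 transcripts of all other genes: of 86 symbols looked up, the untested Cox8c included, 35 had an annotated copy of at least 90% identity over at least 50% of the coding sequence, with 85 copies in all, of which 82 were processed pseudogenes.

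Low levels went with close copies. Isoforms known from other tissues and genes that are no subunits were set aside for this count, a choice made after the values were seen, which left out 9 genes. Of the 22 remaining genes with a copy of at least 95% identity, 11 had a mean level below 30 FPKM, and their median level was 36.1 FPKM in GluN1 and 34.4 FPKM in WT. Of the 54 genes with no such copy, 1 (Ndufa11) was below 30 FPKM, and the median was 124 FPKM in GluN1 and 126 FPKM in WT. The 9 genes set aside all lacked a close copy and were below 30 FPKM, so with them the counts were 11 of 22 with a close copy and 10 of 63 without one, and the 63 had a median of 106 FPKM in GluN1 and 105 FPKM in WT. Ndufb4 has a copy (Ndufb4c) of 100% identity, as have Cox7c (Gm12338) and Atp5g2 (Gm10175 and Gm10231). A read from such a stretch matches both places equally, and how the authors' alignment placed such reads is not given in the sources used here, so the levels of these genes are uncertain.

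At 8 of the 85 copies the GluN1 and WT table held an unnamed tested model, and some of these had more FPKM than the gene itself. The unnamed model at Gm12251, a processed pseudogene of Ndufs3 at chr11:58392769-58393560 on the minus strand, had 65.9 FPKM in GluN1 and 66.7 FPKM in WT, while Ndufs3 itself, a core subunit of complex I at chr2:90894634-90904827, had 19.1 FPKM in GluN1 and 19.9 FPKM in WT. The model at Gm19503, a pseudogene of Cox7b at chr1:151520447-151520687, had 362 FPKM in GluN1 and 332 FPKM in WT, against 65.8 FPKM in GluN1 and 63.9 FPKM in WT for Cox7b at chrX:106015700-106022450. The model at Gm12231, a pseudogene of Atp5f1 at chr11:55118101-55118795, had 95.9 FPKM in GluN1 and 94.2 FPKM in WT, against 52.3 FPKM in GluN1 and 54.4 FPKM in WT for Atp5f1, the b subunit of the peripheral stalk, at chr3:105942698-105960099. For Ndufs3, Cox7b and Atp5f1 the larger signal was thus assigned to the copy in both groups. Cox5b at chr1:36691449-36693681 has a copy, Gm11273 at chr13:21501029-21501418, that GENCODE annotates as protein coding and that had no model.

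How little separates these genes from their copies is shown by the first aligned stretch of 90 bases of coding sequence that holds a difference, read from GRCm38 and given 5′ to 3′ on the strand of each gene, with the bases that differ in capitals. Over the aligned coding sequence Ndufs3 and Gm12251 were 98.6% identical, Cox7b and Gm19503 96.7%, Atp5f1 and Gm12231 98.8%, and Cox5b and Gm11273 99.2%. In these stretches the pairs differ at 3, 4, 1 and 1 positions in that order, with long runs of identical bases between them.
Ndufs3: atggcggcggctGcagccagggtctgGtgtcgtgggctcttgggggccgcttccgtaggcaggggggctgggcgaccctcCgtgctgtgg
Gm12251: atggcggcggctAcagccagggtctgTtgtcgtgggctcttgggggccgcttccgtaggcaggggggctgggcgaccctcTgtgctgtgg
Cox7b: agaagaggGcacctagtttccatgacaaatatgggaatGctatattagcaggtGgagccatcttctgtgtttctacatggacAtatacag
Gm19503: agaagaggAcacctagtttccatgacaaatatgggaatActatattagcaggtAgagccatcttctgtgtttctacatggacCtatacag
Atp5f1: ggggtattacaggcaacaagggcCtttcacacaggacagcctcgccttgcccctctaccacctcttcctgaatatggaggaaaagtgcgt
Gm12231: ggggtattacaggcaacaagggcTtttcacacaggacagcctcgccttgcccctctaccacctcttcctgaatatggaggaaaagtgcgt
Cox5b: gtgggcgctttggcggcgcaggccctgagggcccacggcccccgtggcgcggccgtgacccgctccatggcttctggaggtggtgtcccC
Gm11273: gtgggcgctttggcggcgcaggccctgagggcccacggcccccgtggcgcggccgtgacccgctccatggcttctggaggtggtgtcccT

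The comparison of GluN1 with WT addresses the transcripts that go with a low level of Grin1. No subunit gene was called at the study's threshold. A set of this size would hold few calls at the share over all tested models, so the count of 0 does not set the members apart. Of the 88 member models, 0 were called by Cuffdiff in the authors' deposited table, against 2.52% of all tested models; 0 were called higher, against 1.66%, and 0 lower, against 0.858%. At an unadjusted p under 0.05 the count was 1 of 88, against 7.91% of all tested models. That model was Cox6a2, the heart and skeletal muscle isoform, at 2.57 FPKM in GluN1 and 3.62 FPKM in WT (log2 fold -0.49, p = 0.0415 and q = 0.579 in the authors' deposited table). The locus of the model spanned 32422 bases, against 953 for the annotated gene. Whether neighbouring sequence adds to its level was not tested.

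The folds of GluN1 over WT were small and lay on both sides of 0 (a log2 fold of 0 means equal FPKM). Among the 85 models that averaged 1 FPKM or more, 41 were higher in GluN1 and 44 were lower, with a median log2 fold of -0.01. Over all 13920 tested models that passed the minimum it was also -0.01, with 53.2% lower. At 10 FPKM or more, 54.1% of 74 members were lower (median -0.01), against 60.6% of all 6896 models (median -0.02). By complex, at the minimum of 1 FPKM, the median was -0.02 for complex I, 0.04 for complex II, 0.02 for complex III, -0.02 for complex IV and -0.01 for complex V. The 4 succinate dehydrogenase genes were all higher in GluN1, and none was called. Sdhb, the iron-sulfur subunit, had 85.3 FPKM in GluN1 and 81.5 FPKM in WT (log2 fold 0.07). The membrane anchors Sdhc (76.2 FPKM in GluN1 and 74.2 FPKM in WT) and Sdhd (64.0 FPKM in GluN1 and 62.1 FPKM in WT) both had a log2 fold of 0.04, and Sdha one of 0.02.

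The summed FPKM of a complex, a measure led by its most abundant transcripts, was 98.0% of the WT sum in GluN1 for complex I, 103% for complex II, 100.2% for complex III, 97.7% for complex IV and 100.2% for complex V. Over all tested models that passed the minimum of 1 FPKM, the sum in GluN1 was 98.7% of that in WT. Among models that averaged 1 FPKM or more, the members with the most extreme folds were mostly low ones. In complex I these were Ndufa4l2 (log2 fold 0.27) and, at the other end among models with a single symbol, the accessory subunit Ndufb6, whose larger model had 134 FPKM in GluN1 and 144 FPKM in WT (log2 fold -0.10). In complex IV, Cox7a1 had a log2 fold of 0.19, and Cox5b, next to Cox6a2 in size, one of -0.30 (p = 0.0605 in the authors' deposited table). In complexes III and V no fold exceeded 0.10 in size: they ran from -0.07 for Uqcrb to 0.06 for Uqcr11, both small subunits of complex III, and from -0.10 for Atp5h, the d subunit of the stalk, to 0.05 for Atp5g2.

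**Figure D3:**
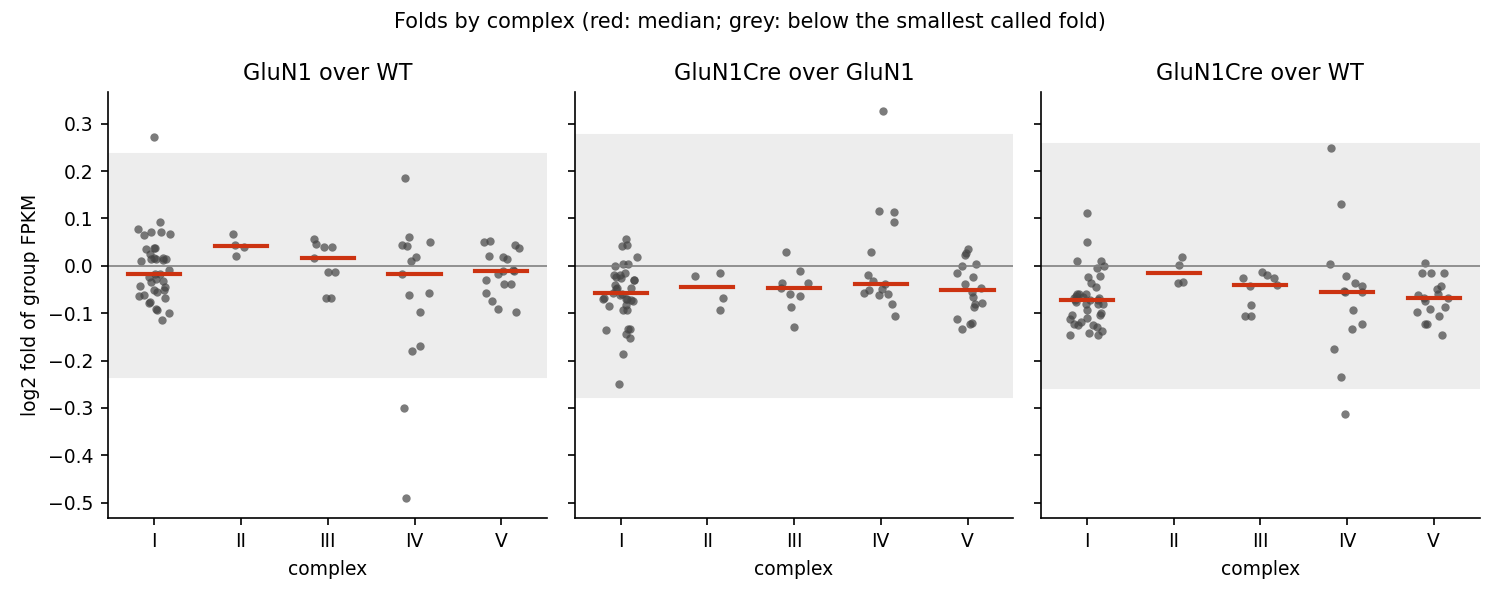
Each point is the log2 fold of group FPKM of a member model averaging 1 FPKM or more, by complex, for GluN1 over WT, GluN1Cre over GluN1 and GluN1Cre over WT; red bars are medians, and the grey band ends at the smallest fold called among models at like levels. Nearly all points lie in the band, around 0 for GluN1 over WT and mostly below 0 in the comparisons of GluN1Cre.

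The table sets a limit on what could be seen. Levels between the 5th and the 95th percentile of the members (1.57 to 440 FPKM) held 12718 tested models, against 13920 that averaged 1 FPKM or more. Among these 12718 the smallest log2 fold that was called was 0.24 in size, a difference of 17.7%. The median size over the 329 called models was 0.42. The range is wide, and no limit was computed for the levels of most members alone. Of the members in that range, 3 of 75 had a fold of at least the smallest called size. No difference of a few percent was called in that range, so differences of that size in a subunit transcript could go unseen in these data.

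GluN1Cre against GluN1 asks which transcripts move when Grin1 is partly restored in adult animals. The levels of most subunit transcripts were slightly lower in GluN1Cre, and none passed the threshold. Of 87 member models, 0 were called by Cuffdiff, against 0.689% of all tested models (0.13% higher and 0.559% lower), and 0 of 87 had an unadjusted p under 0.05, against 4.19%. At a share of 0.689% a set of this size would hold few calls, so its 0 calls do not set it apart. Among the 84 models that averaged 1 FPKM or more, 67 were lower in GluN1Cre and 17 were higher, with a median log2 fold of -0.05. Over the 13893 tested models that passed the minimum, 52.5% were lower and the median was -0.00. At 10 FPKM or more, 61 of 72 members were lower (median -0.05), against 50.4% of all 6895 models (median -0.00).

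All complexes had a median below 0 in GluN1Cre over GluN1. It was -0.06 for complex I (32 of 38 lower), -0.04 for complex II (4 of 4), -0.05 for complex III (8 of 9), -0.04 for complex IV (10 of 15) and -0.05 for complex V (13 of 18). Summed FPKM in GluN1Cre was 96.4%, 96.9%, 95.8%, 97.4% and 95.4% of the GluN1 sum in complexes I to V, against 98.5% over all tested models that passed the minimum. The 4 Sdh genes had log2 folds of -0.02 (Sdha), -0.09 (Sdhb), -0.07 (Sdhc) and -0.02 (Sdhd). Atp5b had 529.5 FPKM in GluN1Cre and 547 FPKM in GluN1 (log2 fold -0.05), and Ndufa4 had 382 FPKM in GluN1Cre and 405 FPKM in GluN1 (log2 fold -0.08). Among models that averaged 1 FPKM or more, the ends of the range were again low genes: Cox6a2 with 3.23 FPKM in GluN1Cre and 2.58 FPKM in GluN1 (log2 fold 0.33, p = 0.16 in the authors' deposited table) and Ndufa4l2 with 1.55 FPKM in GluN1Cre and 1.84 FPKM in GluN1 (log2 fold -0.25). The smallest log2 fold called at the members' levels was 0.28 in size, and 1 of 74 members in that range reached it.

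GluN1Cre against WT asks what still differs after the rescue. Here too no subunit gene was called, but the folds lay most clearly to one side. Of 87 member models, 0 were called by Cuffdiff, against 0.841% of all tested models (0.364% higher and 0.478% lower), and 0 had an unadjusted p under 0.05, against 4.32%. Few calls would fall in a set of this size at a share of 0.841%, so its 0 calls do not set it apart. Among 85 models that averaged 1 FPKM or more, 75 were lower in GluN1Cre than in WT and 10 were higher, with a median log2 fold of -0.07. Over the 13835 tested models that passed the minimum, 55.8% were lower and the median was -0.01. At 10 FPKM or more, 68 of 73 members were lower (median -0.07), against 63.2% of all 6834 models (median -0.02).

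By complex, the median log2 fold of GluN1Cre over WT was -0.07 for complex I (35 of 39 lower), -0.02 for complex II (2 of 4), -0.04 for complex III (9 of 9), -0.06 for complex IV (12 of 15) and -0.07 for complex V (17 of 18). Summed FPKM in GluN1Cre was 94.2% of the WT sum for complex I, 99.2% for complex II, 95.5% for complex III, 94.6% for complex IV and 95.2% for complex V, against 97.3% over all tested models that passed the minimum. Complex II thus lay nearest to WT in these sums, and the differences between complexes were not tested. Ndufa4 had the smallest p of the members, at 379 FPKM in GluN1Cre and 419 FPKM in WT (log2 fold -0.15, p = 0.0627 in the authors' deposited table). Cox8a had 936 FPKM in GluN1Cre and 1026 FPKM in WT (log2 fold -0.13), and Atp5k had 585 FPKM in GluN1Cre and 637 FPKM in WT (log2 fold -0.12). The catalytic subunits were closer to WT: Atp5a1 (332 FPKM in GluN1Cre and 335 FPKM in WT) had a log2 fold of -0.01, Atp5b one of -0.02, Ndufs1 one of -0.00 and Sdha (139 FPKM in GluN1Cre and 138 FPKM in WT) one of 0.00. The lowest and highest folds belonged to Cox5b (8.43 FPKM in GluN1Cre and 10.5 FPKM in WT, log2 fold -0.31) and Cox6b2 (2.82 FPKM in GluN1Cre and 2.37 FPKM in WT, log2 fold 0.25). The smallest log2 fold called at the members' levels was 0.26 in size, and 1 of 75 members reached it.

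The comparisons share groups: GluN1Cre enters both of those in which most members were lower, and WT and GluN1 each enter another pair, so their values are not independent of each other. The genes of a complex were also measured in the same libraries, so a count such as 75 of 85 counts genes and not animals. Without values per animal, a shift of this size cannot be set against the spread between mice.

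Other genes for large assemblies with short transcripts were measured in the same way. Cytosolic ribosomal protein genes had median log2 folds of -0.04 for GluN1 over WT (58 of 82 lower), -0.01 for GluN1Cre over GluN1 (42 of 79) and -0.06 for GluN1Cre over WT (61 of 83). Mitochondrial ribosomal protein genes had medians of -0.02 (47 of 76 lower), -0.03 (56 of 75) and -0.05 (62 of 75) in the same order, and 0 models of either family were called by Cuffdiff. At an unadjusted p under 0.05 in Cuffdiff there were 2, 0 and 2 cytosolic and 0, 0 and 0 mitochondrial ribosomal models. Over all tested models the shares were 7.91%, 4.19% and 4.32% at that p, and 2.52%, 0.689% and 0.841% were called. In GluN1Cre over WT the ribosomal families thus lay below 0 as the subunit genes did, and the difference between these families was not tested.

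Annotated transcript length moved with the fold of GluN1Cre over WT. Length was taken as the median over a gene's protein-coding GENCODE transcripts, all counted alike. By this measure Ndufs1 and, named after their values were seen, Uqcrc1 and Ndufv3 counted as short (651, 533 and 645 bases). Their longest coding sequences had 2181, 1440 and 1404 bases, so the short class below holds some genes with long transcripts. Among models with at least 10 FPKM and a GENCODE transcript length, the members had a median length of 681.5 bases in the table of GluN1Cre against WT, and the other named models one of 2197 bases. Of the 51 members with a length under 1000 bases by this measure, 51 were lower in GluN1Cre than in WT, with a median log2 fold of -0.07. Of the 19 longer members, 15 were lower, with a median of -0.02. Among the other models 71.6% of the 1000 short ones and 60.5% of the 4525 longer ones were lower, with medians of -0.04 and -0.02. Spearman's rho between length and fold was 0.45 over the 70 members and 0.23 over the 5525 other models, which all come from the same libraries. In GluN1 over WT the other models showed almost no such relation (rho 0.02, medians of -0.02 for short and for longer ones, 61.2% lower in both), while the short members had a median of -0.02 and the longer members one of 0.02 (rho 0.26). In GluN1Cre over GluN1 the medians were -0.06 for short and -0.04 for longer members (rho 0.23) and -0.01 and 0.00 for other models (rho 0.22). The part of transcript length in the lower values of GluN1Cre was not tested.

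**Figure D4:**
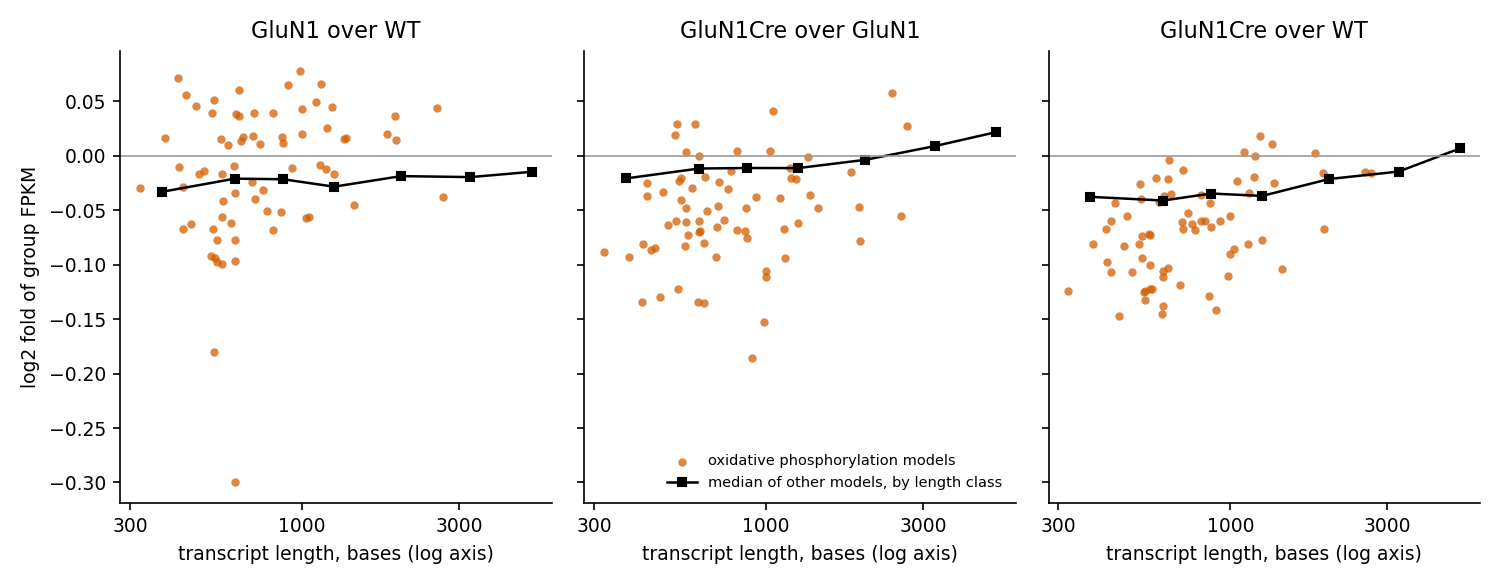
Orange points are member models with at least 10 FPKM, placed by length (log axis, bases) and the log2 fold of group FPKM in each comparison. Length is the median over the gene's protein-coding transcripts in GENCODE. Black squares are the medians of all other named models in 7 length classes. In GluN1Cre over WT the short members lie below 0 and mostly below the medians of the other models, and the longer members lie nearer to both.

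The same libraries were estimated in more than 1 table, which gives a measure of how far the choice of table moves a value. All models moved together by little, with median log2 differences of 0.00 for GluN1, -0.02 for GluN1Cre and -0.01 for WT, and the parts of assembly and of library scaling cannot be told apart here. For the 83 members found in the paired tables, the median size of the difference between the estimates was 0.01 on the log2 scale for GluN1, for GluN1Cre and for WT, but 9, 9 and 13 members differed by more than 0.1. Atp5f1 had 54.4 and 33.7 FPKM for the same WT libraries in the tables with GluN1 and with GluN1Cre, and 52.3 and 32.1 FPKM for the same GluN1 libraries in the tables with WT and with GluN1Cre. Ndufab1, the mitochondrial acyl carrier protein of complex I, had 26.4 and 17.8 FPKM for the GluN1 libraries in the tables with WT and with GluN1Cre. Atp5l, the g subunit of ATP synthase, was merged with Mll1 in 1 table at 14.7 FPKM for GluN1 and with Mll1, Tmem25 and Ttc36 in another at 36.8 FPKM for GluN1. For Atp5f1, Ndufab1 and Atp5l the choice of table moved the value more than their differences between groups did. Of the 22 members with a close copy, 6, 5 and 6 differed by more than 0.1 for GluN1, GluN1Cre and WT, and of the 61 without one, 3, 4 and 7. Large differences thus occurred in genes with and without close copies, and in a larger share of those with a close copy in each group. The difference between these shares was not tested.

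**Figure D5:**
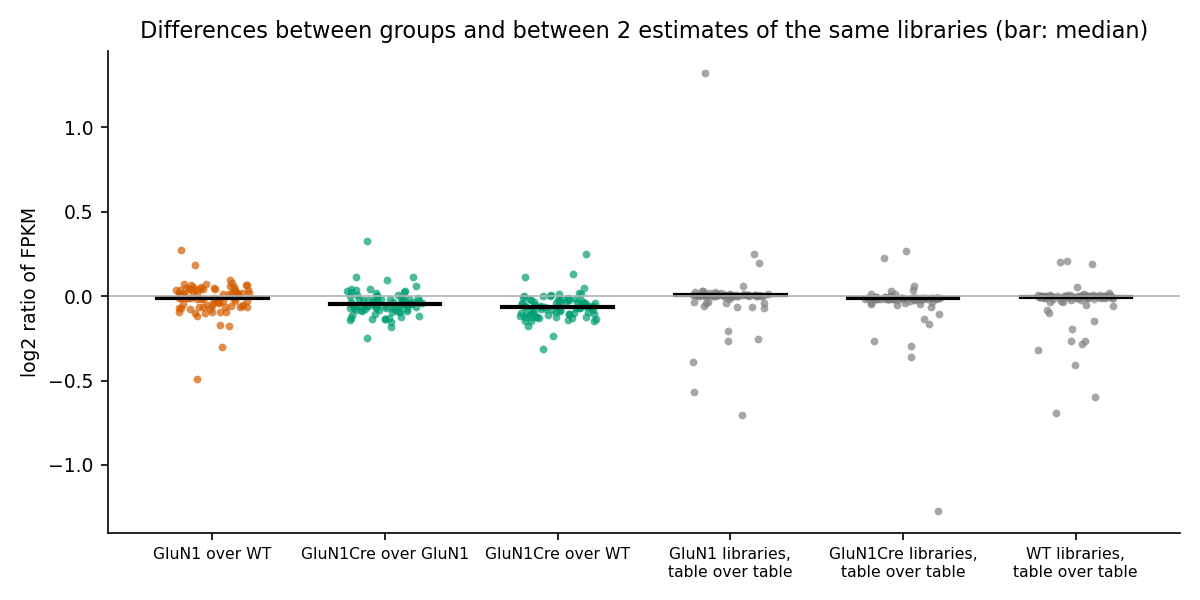
Points on the left are log2 folds between groups of member models averaging 1 FPKM or more, and grey points on the right are log2 ratios of 2 estimates of the same libraries in different tables; bars are medians. Most members were estimated alike in both tables, while a few, led by Atp5l, Atp5f1 and Ndufab1, moved by more than any fold shown between groups.

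The other genes of mitochondrial energy metabolism, read from lists by role, showed 1 called gene. Of the 45 listed assembly factors of the complexes, 30 were measured and 0 were called in any comparison; their median log2 folds were -0.02 in GluN1 over WT, -0.03 in GluN1Cre over GluN1 and -0.03 in GluN1Cre over WT. All 18 listed enzymes of the tricarboxylic acid cycle were measured, with medians of 0.00, -0.03 and -0.02 and 0 called. Of the 20 regulators of mitochondrial transcription and biogenesis 18 were measured, with medians of -0.01, -0.01 and -0.02, and all 17 chaperones, proteases and antioxidant enzymes had medians of -0.02, -0.02 and -0.01; 0 of either list were called. Lists of this size would hold few calls at the shares over all tested models (2.52%, 0.689% and 0.841%), so these counts of 0 do not set the lists apart. These 4 lists also held 0 models with an unadjusted p under 0.05 in Cuffdiff, against 7.91%, 4.19% and 4.32% of all tested models. Of the 13 subunits that the mitochondrial genome encodes, 0 were among the tested models, and they were not analysed here.

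In the list of electron carriers and coupling proteins, 25 of 26 symbols were measured, with medians of -0.01, -0.05 and -0.03 in the same order of comparisons. The called gene was Ucp2, an inner membrane carrier of the uncoupling protein family. It was at 18.5 FPKM in GluN1 and 13.1 FPKM in WT and rose in GluN1 (log2 fold 0.50, with q = 0.0142 in the authors' deposited table). In the table of GluN1Cre against GluN1 it was merged with its neighbour Ucp3, and the merged model fell to 14.3 FPKM in GluN1Cre, against 19.6 FPKM in GluN1 (log2 fold -0.45, with q = 0.0291 in the authors' deposited table). In GluN1Cre against WT a merged model of other extent had 5.99 FPKM in GluN1Cre and 5.75 FPKM in WT and was not called. The same WT libraries thus gave 13.1 and 5.75 FPKM for models of this locus. Ucp2 is also expressed outside neurons, and the glial markers Gfap (54.0 FPKM in GluN1 and 34.6 FPKM in WT) and Aqp4 (28.8 FPKM in GluN1 and 23.5 FPKM in WT) were called higher in GluN1 as well. All 5 astrocyte marker models were higher in GluN1 than in WT, 2 of them called, and their sum in GluN1 was 116% of that in WT. In GluN1Cre against GluN1 all 5 were lower, 1 of them called, with sums of 274 FPKM in GluN1Cre and 310 FPKM in GluN1. Microglial markers summed to 117 FPKM in GluN1 and 115 FPKM in WT, with 0 of 6 called. The part of these cell types in the level of Ucp2 was not tested.

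A few matches of the rule are not subunits or carry that name for another reason. Atp5s, a coupling factor named after ATP synthase, had 8.44 FPKM in GluN1 and 8.88 FPKM in WT, and Atp5sl, since renamed Dmac2 and linked to the assembly of complex I, had 13.9 FPKM in GluN1 and 13.7 FPKM in WT in its larger model. Both stayed in the counts above, and neither was called in any comparison. Merged models, such as Ndufs8 with Aldh3b1 and Ndufb2 with Adck2, mix the reads of a subunit gene with those of its neighbour. Some models with a single symbol also had a locus far wider than the gene. Examples, named after the values were seen, are Atp5d (672334 against 7187 bases) and Ndufb11 (35581 against 2294 bases), and the effect on their levels was not tested.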

How the data were processed

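Per the series' design text, the authors ran the Tuxedo programs on Galaxy. The submitters' processing notes name mm10 and GRCm38 as builds and, as tools, Cuffdiff 2.2.1.3, Cufflinks 2.2.1.0, TopHat2 2.1.0 and FastQC 0.65. Per the file headers, each of the 3 deposited tables gives the FPKM of each of a pair of groups for every assembled gene model. The deposited p-value and q-value of each model are those of the authors' Cuffdiff test. GluN1 and GluN1Cre are called NR1 and NR1Cre in the tables. The tables were assembled separately, so comparisons stay within a table. Depth per sample is unknown, so no counting interval is given.

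Here, members were found by symbol among the tested models, and folds were recomputed as the log2 ratio of group FPKM with no pseudocount. A model was called at p under 0.05 and q under 0.10, the threshold of the series' design text. Medians used models that averaged 1 FPKM or more. No further test was made, since the tables hold no values per animal. Coding sequences, transcript lengths and places came from GENCODE M21, and copies were found with BLAST 2.17.0 (at least 90% identity over at least 50% of the coding sequence; close copies at least 95%). Of the named models with at least 10 FPKM, 91.6% to 91.8% were matched to a transcript length, the median over the gene's protein-coding transcripts. Tables were handled with Python 3.11.15 and pandas 2.3.3. The calling threshold and the routine for recomputed q-values were tested on simulated data, and the other summaries were not.

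Named genes were the highest, largest-fold and smallest-fold models of each complex in GluN1 against WT, the extremes in the other tables, isoform families, the Sdh genes, core subunits, matches that are no subunits and called genes of the other lists; 1 gene that this rule names is not reported here. The members and lists were chosen with earlier results of these data known.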

Additional observations from a re-analysis of the deposited data

How the results depend on the processing

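No paired analysis was possible because the tables hold 1 value per group and none per animal; leaving out single animals could not be run for the same reason. The counts of called members stayed at 0 in 17 of 18 recounts. These used q under 0.05, q recomputed over models averaging 1 FPKM or more, and members without merged models, without Atp5s and Atp5sl, or without close copies. The exception was GluN1 against WT at p under 0.05 alone, with 1. The smallest Cuffdiff q of a member was 0.579 in GluN1 against WT and 0.9999 in the other comparisons. A stricter q or fewer members could thus only leave a count of 0, and such recounts do not test it. Of 30 recomputed medians over all members, 25 moved by less than the difference between estimates of the same libraries. Centred on all models, the median of GluN1Cre over WT was -0.06 (-0.0553). An alternative chosen after seeing the data kept only members with a median transcript length of at least 1000 bases. Its medians were 0.0158 for GluN1 over WT, -0.0362 for GluN1Cre over GluN1 and -0.0241 for GluN1Cre over WT. Without members with close copies, chosen likewise, the median of GluN1 over WT was 0.00979, against -0.00943 with them. Of 150 medians by complex 31 moved by more than that difference, and of 342 folds of named genes 12 moved by more than 0.1.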
